A study of Laxus oneistus with 16 samples.

Results

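The marine nematode *Laxus oneistus* was compared between full air saturation (O) and anoxia (A), the oxygen extremes of a series of 4 incubations. All libraries with these labels were taken, 6 O libraries (replicates 1 to 6) and 4 A libraries (replicates 1, 2, 3 and 5), which are 10 of the 16 libraries of the series. Each library was made from a batch of 50 freshly collected adult worms, kept for 24 h in the dark in filtered seawater, so it averages over pooled whole animals and their tissues. The O vials stood open in an aquarium bubbled with air, whereas the A vials stayed in bags flushed with nitrogen. All worms were wild-caught, carried their symbiont coat and received neither a drug nor a genetic change. Libraries of worms under hypoxia (H, 3 libraries, open vials exposed to air) and under anoxia with 11 µM sulfide (AS, 3 libraries) served to estimate the spread and as libraries outside the comparison. Of 27984 transcripts in the files, 17932 were tested.

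*L. oneistus* lives in sand at the border between oxygenated and sulfidic pore water, and its surface is covered by the sulfur-oxidizing bacterium *Candidatus* Thiosymbion oneisti. Oxygen is the terminal electron acceptor of the respiratory chain and a source of peroxide, and many nematodes without oxygen turn to fermentative malate and fumarate routes that start from phosphoenolpyruvate. Free-living nematodes such as *Caenorhabditis elegans* can also enter suspended animation in anoxia, a state in which movement and development stop. The comparison of O with A asks which host transcripts differ in level between worms with plentiful oxygen and worms with none.

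Total counts ranged from 9032241 to 18627740 (median 12979467) in O and from 15754749 to 17673789 in A, and levels are given as CPM, counts scaled to the library total and to the scaling factor of edgeR, which are not divided by transcript length. Counts of paired replicates differed far beyond sampling noise (chi-square over its degrees of freedom 16.31 to 131.4, 21 pairs). The libraries were split into 2 sets that cross the conditions. O replicates 2, 3 and 5 and A replicates 3 and 5 form the set of 5. In them, the 1031 transcripts that were left out made up 0.278% to 0.813% of a library. These transcripts were chosen for fewer than 10 reads in total over the remaining 11 libraries. Their share of at most 0.00118% there thus follows from the rule. The limit of 10 reads in 3 libraries also requires them in O replicates 2, 3 and 5. It does not require them in A replicates 3 and 5 (0.657% and 0.804%). The 5 libraries had 19403 to 21708 transcripts with at least 10 reads, the 1031 included, and the other O and A libraries 15639 to 18038. Worms were collected on several field trips, but the labels do not tie a library to a trip, and the methods say that replicate incubations began together. The p-values therefore measure only the spread between these batches.

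Averaged over all pairs, the profiles of O and A libraries lay about as far apart as those of replicates. The mean Euclidean distance on log2 CPM between an O and an A library of the same set was 122 (78.5 to 182, 12 pairs). Within O it was 119 over 6 pairs from the same set and 139 over 9 pairs from different sets, and within A it was 114 over 2 pairs and 144 over 4 pairs. O replicate 6 lay at 156 to 202 from every other O and A library and raised these means. Without it, O pairs of the same set lay at 85 to 105, and O to A pairs of the same set at 78.5 to 133. Over all pairs, an O library was on average nearer to an A library of its own set than to an O library of the other set, without a test. When the difference O minus A was taken in each set alone, 50.9% of the tested transcripts had the same sign in both, with a Spearman correlation across transcripts of 0.087. Transcripts are not independent replicates, and this share is a description. A share of 46.4% to 57.3% was found when each library was left out in turn.

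A transcript was called different if its false discovery rate (FDR) did not exceed 0.05 and the levels differed by 1.5-fold or more, in edgeR's quasi-likelihood test of all 16 libraries with Benjamini-Hochberg adjustment. Few transcripts passed. Only 25 of the 17932 were called (0.139%), 21 of them higher in A (0.117%) and 4 higher in O (0.0223%). An unadjusted p under 0.05 was found for 8.56% of the transcripts. The median log2 fold change of O over A over all tested transcripts was 0.00. The called log2 fold changes had sizes of 0.60 to 4.65 and a median size of 0.99, a 1.99-fold difference. In each of the 25 the O and A libraries did not overlap, which was so for 2.03% of all tested transcripts. The calls were made on the same values, so this is a description and no added support. The same test called 2 transcripts on the O and A libraries alone, 1 within the set of 5 and 0 in the 11 libraries outside it (1032 with an unadjusted p under 0.05), and 7 without A replicate 1, 8 without A replicate 3 and 9 without A replicate 2. DESeq2 called 82 (23 higher in O) and edgeR's likelihood ratio test 88 (19 higher in O), and each of these lists contained all 25.

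The annotation used here, Data S2 and the first 1129 rows of Data S1, named 184 of the 17932 tested transcripts and left 17748 without a name. None of the 25 called transcripts was among those named, so they are given by locus tag and no function is assigned. With so few named, this says little about the 25, since the paper kept only transcripts with some functional annotation. They came from 25 different clusters of the *de novo* assembly. They were not confined to rare messages, since their median level over the O and A libraries was 43.1 CPM, against 17.4 CPM for all tested transcripts, and the highest was 178 CPM.

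The largest difference was that of TRINITY_DN79873_c0_g1_i2_9dedup, which was nearly absent in oxygen. Its level was 0 CPM in the lowest O library, 0.217 at the median and 0.466 in the highest, from 0 to 6 reads. In A replicates 1, 2, 3 and 5 it was 5.04, 5.37, 5.09 and 6.67 CPM, from 80 to 102 reads. Every A library was thus above every O library by a wide margin, and the A libraries lay close to each other. The transcript met the limit of 10 reads in 3 libraries only through A, where it was high. Its separation is therefore a description and no added support. The log2 fold change of O over A was -4.65 (SE 0.683, FDR 0.014). It was at 0.152 to 0.646 CPM in H and at 0.816 to 1.52 CPM in AS, so the AS level lay between those of H and A.

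The next largest among transcripts higher in A was TRINITY_DN44744_c0_g2_i5_4dedup. It was at 4.53, 5.81 and 7.28 CPM in the lowest, median and highest O library and at 15.7, 18.3, 21.1 and 30.7 CPM in A. The A values varied more than the O values but did not reach them. The log2 fold change was -1.89 (SE 0.237, FDR 0.00295), a 3.7-fold higher level in A.

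The smallest FDR, 0.000897, belonged to TRINITY_DN52369_c0_g1_i11_4dedup, which was singled out after its values were seen. The O libraries were at 49.2 CPM (lowest), 67.4 (median) and 76.3 (highest), and the A libraries at 153, 161, 244 and 252 CPM. The lowest A library was well above the highest O library, and the log2 fold change was -1.63 (SE 0.18). Of 29 alternative analyses, 27 called it, more than for any other transcript. The exceptions were the fits within the libraries outside the set of 5.

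Of the 4 transcripts higher in O, TRINITY_DN95874_c9_g2_i5_9dedup differed most. It was at 40 CPM in the lowest O library, 93.5 at the median and 282 in the highest, whereas the A libraries were at 16.4, 15.8, 15.4 and 7.45 CPM. The O libraries spread widely but all stayed above A. The log2 fold change was 3.24 (SE 0.529, FDR 0.0181), and it was 3.82 within the set of 5 and 2.12 within the other O and A libraries, on log2 CPM.

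The second, TRINITY_DN51126_c1_g1_i2_4dedup, differed less but with a narrow spread. It was at 109, 114 and 138 CPM in the lowest, median and highest O library and at 69, 75.1, 75.1 and 48 CPM in A. The gap between the groups was wider than the range within either group. The log2 fold change was 0.83 (SE 0.152, FDR 0.037).

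**Figure D1:**
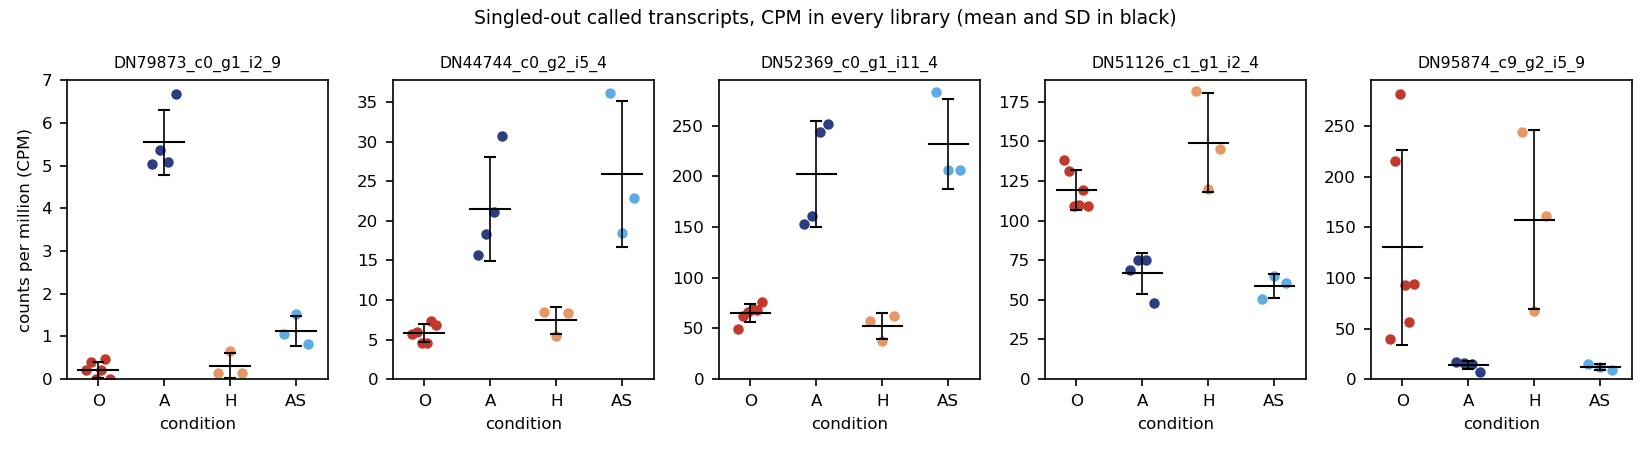
CPM (vertical axes, each from 0) of the 5 transcripts singled out, in every O, A, H and AS library (points), with the mean and SD in black. In all 5 panels the O and A points do not overlap, and the H points lie below the AS points in the 3 transcripts higher in A and above them in the 2 higher in O. The largest difference is that of DN79873, at 0 to 0.466 CPM in O and 5.04 to 6.67 CPM in A.

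The other 20 called transcripts are given by their ranges. Over the 21 that were higher in A, the log2 fold change of O over A had a median of -1.02 and ranged from -4.65 to -0.69. Their mean levels lay between 5.54 and 253 CPM in A (median 58.2) and between 0.216 and 127 CPM in O (median 30.2). The 2 remaining transcripts higher in O, TRINITY_DN36529_c0_g1_i3_4dedup and TRINITY_DN51756_c0_g1_i1_4dedup, had log2 fold changes of 0.80 and 0.60. The former was at 52.2 to 73.5 CPM in O against 29.2 to 37.6 CPM in A, and the latter at 133 to 179 CPM against 102 to 109 CPM. At the limit itself, the last transcript called had an FDR of 0.0423 and the next with a change of at least 1.5-fold an FDR of 0.0513 (log2 fold change -0.78).

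**Figure D2:**
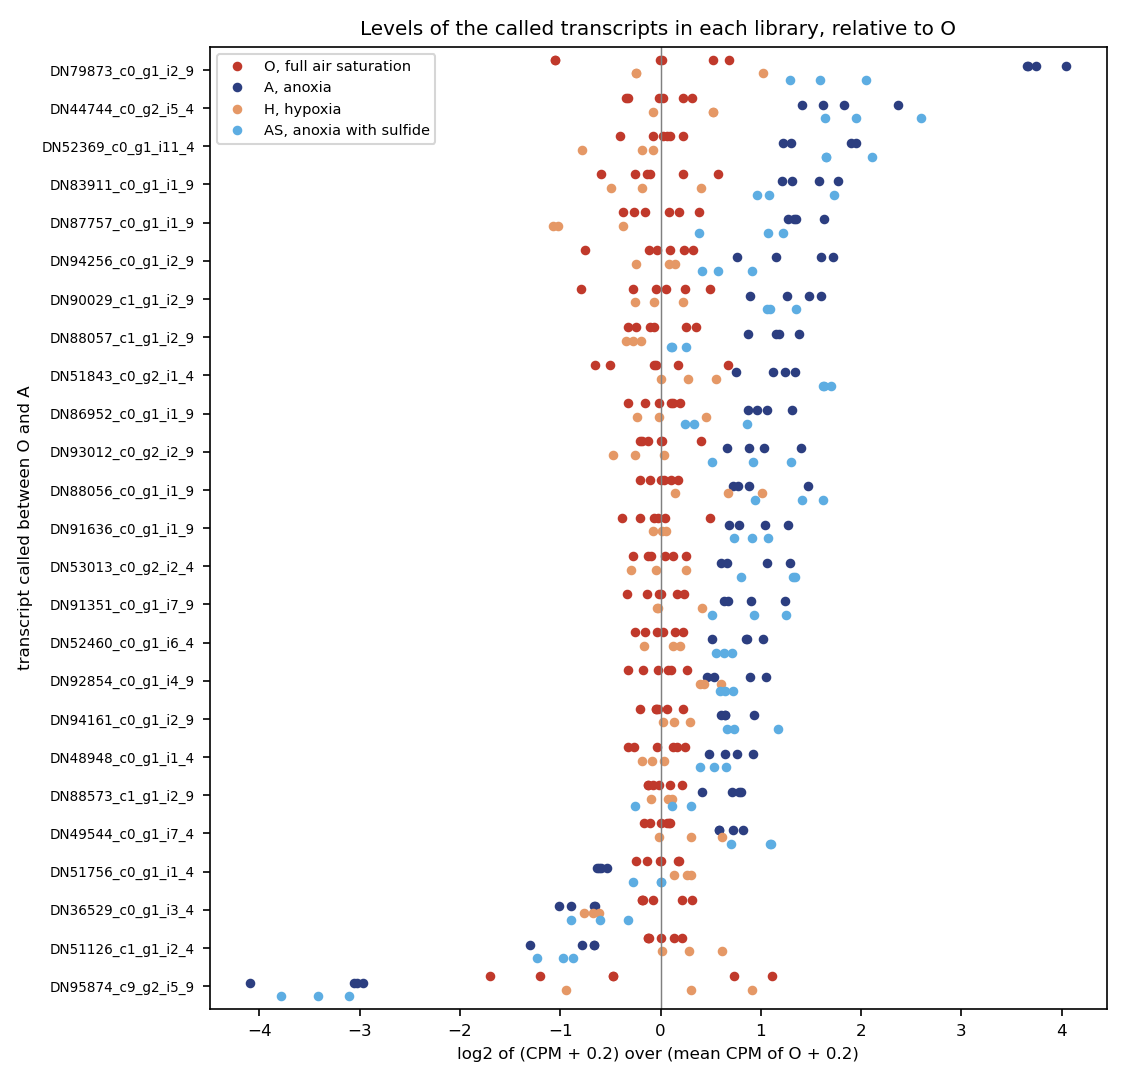
Level of each of the 25 called transcripts (rows) in each library (points), as log2 of (CPM + 0.2) over (mean CPM of O + 0.2), coloured by condition. The A points lie to one side of the O points in every row. The means of H and AS lie nearer to O and to A, respectively, in 16 rows, and in 25.3% of all tested transcripts.

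Hypoxia and anoxia with sulfide provided libraries of neither compared condition. These libraries did enter the estimate of the spread and the filter on total reads. H and AS differ from each other in oxygen, in added sulfide and in handling, and these differences cannot be told apart in them. The paper shows the anoxic vials in a glove bag, whereas the O and H vials stood open. Handling thus goes with oxygen in H against AS as it does in O against A. In a fit of these 6 libraries alone, chosen after the data were seen, 24 of the 25 called transcripts had the same sign in H minus AS as in O minus A. Among all tested transcripts this share was 46.6%, and among the 339 others whose O and A libraries do not overlap it was 57.8%. The exception was TRINITY_DN36529_c0_g1_i3_4dedup, at -0.09. It was 60.4% among all 364 transcripts without overlap, the 25 included. Between H and AS themselves 10 of the 25 were called, all in the same direction as between O and A, against 2.72% of all tested transcripts. Of the 10, 8 were higher in AS (1.62% of all tested) and 2 higher in H (1.1%), and 18 of the 25 had an unadjusted p under 0.05, against 20.7%. The spread used in calling the 25 had been estimated partly from these 6 libraries, and 2 were called on O and A alone. The shares among the 25 are therefore not independent of the calls.

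The transcripts singled out showed the same order in single libraries. TRINITY_DN52369_c0_g1_i11_4dedup was at 57.3, 37.9 and 62.2 CPM in H and at 283, 206 and 206 CPM in AS (log2 fold change H over AS -2.14, SE 0.222, FDR 0.0045 in edgeR's quasi-likelihood test). TRINITY_DN95874_c9_g2_i5_9dedup was at 244, 67.5 and 161 CPM in H and at 14.9, 12 and 9.25 CPM in AS (3.71, SE 0.41, FDR 0.00652). The H levels of both lay in the range of O or, in H replicate 2 of the former, below it, and the AS levels lay in the range of A or, in AS replicate 1 of the former, above it.

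TRINITY_DN51126_c1_g1_i2_4dedup was at 182, 120 and 145 CPM in H and at 50.7, 65.1 and 60.7 CPM in AS, a log2 fold change of 1.34 (SE 0.184, FDR 0.0108 in the same test). TRINITY_DN44744_c0_g2_i5_4dedup was at 8.43, 5.49 and 8.41 CPM in H and at 36.2, 18.5 and 22.9 CPM in AS, a log2 fold change of -1.80 (SE 0.309, FDR 0.0208). For TRINITY_DN79873_c0_g1_i2_9dedup the log2 fold change of -1.77 (SE 0.828) was not past the limits (FDR 0.258). In 17 of the 25, all 9 O and H libraries lay on one side of all 7 A and AS libraries, 15 of them higher without oxygen and 2 higher with it. Such a separation was found for 60 transcripts in all, 0.335% of those tested and 16.5% of the 364 whose O and A libraries do not overlap. The mean log2 CPM of H was nearer to O than to A in 22 of the 25 (48.4% of all tested transcripts), and that of AS nearer to A than to O in 19 (47.2%).

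**Figure D3:**
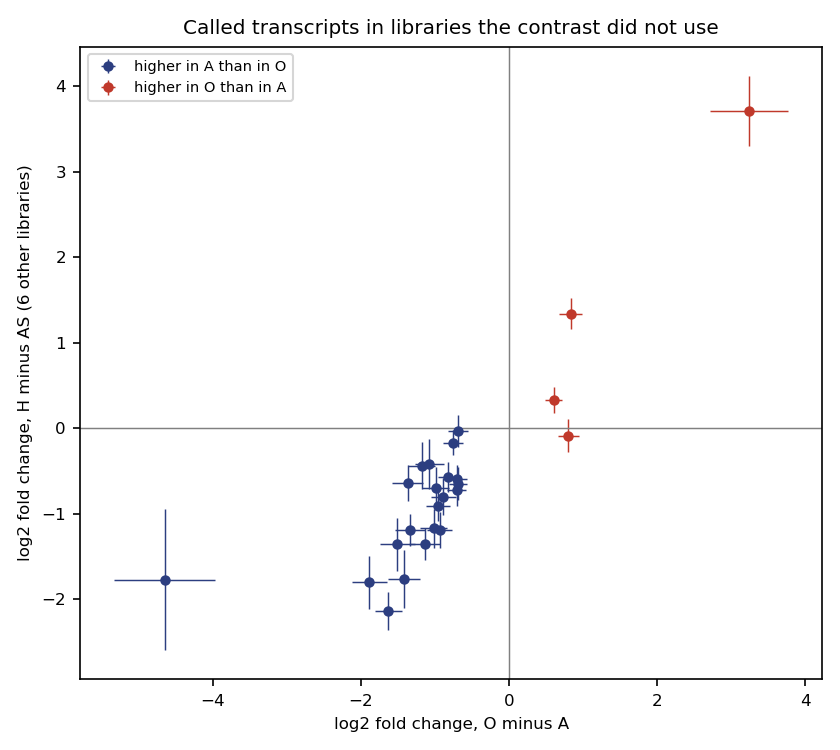
Log2 fold change H minus AS in 6 libraries (vertical axis) against log2 fold change O minus A (horizontal axis) for the 25 called transcripts, with bars of 1 SE. The 6 libraries also entered the spread used in the calls. All 21 transcripts higher in A lie below 0 on the vertical axis, between -2.14 and -0.03, and 3 of the 4 higher in O lie above 0.

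Of annotated transcripts, 137 in 18 lists were examined. Most of these belong to the most abundant transcripts or proteins of the worm in these conditions, so the lists are no independent sample. None of the 137 was called by edgeR's quasi-likelihood test, and none by DESeq2, limma or any other alternative analysis. An unadjusted p under 0.05 was found for 7 of them, and the smallest FDR was 0.332. The median log2 fold change over the 137 was 0.02, beside 0.00 for all tested transcripts. In the following, values are therefore given as levels and fitted differences that did not pass the test. In bulk RNA of whole worms, fewer cells of a type and less RNA per cell cannot be told apart. Names are those of the best match in another species, and reads may be shared between near-identical copies.

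**Figure D4:**
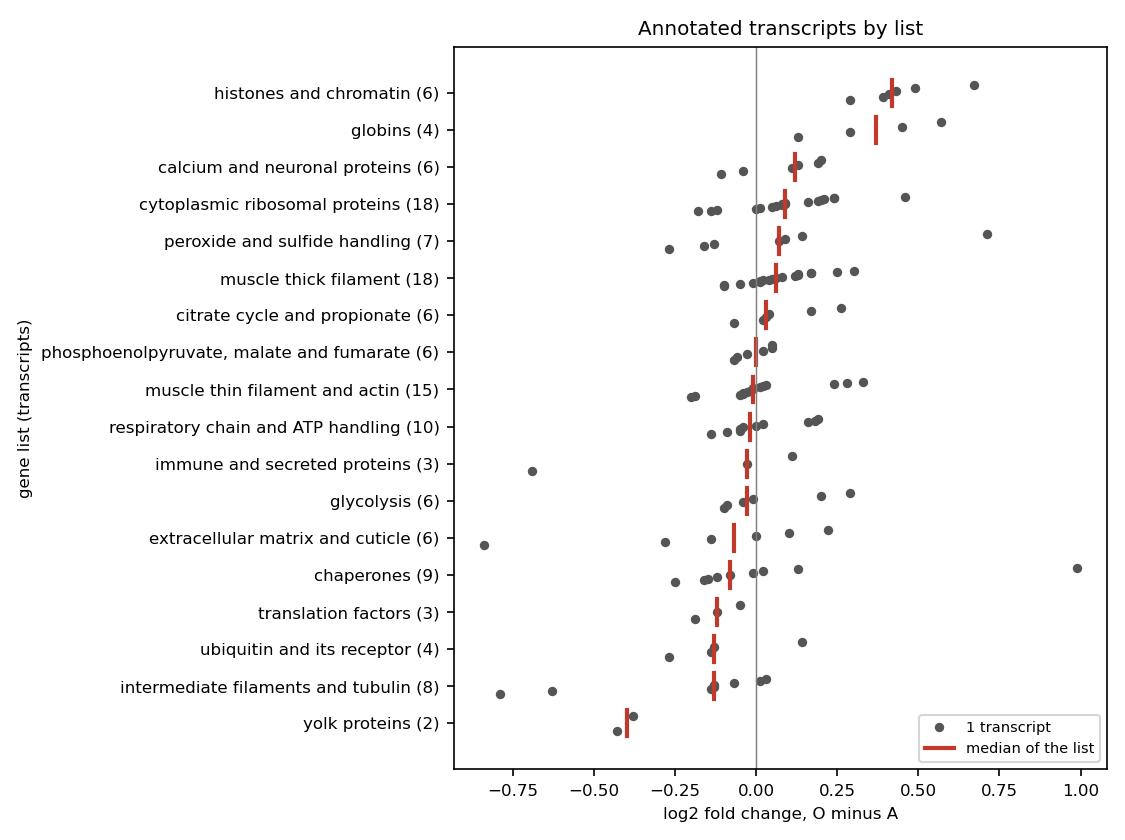
Log2 fold change O minus A (horizontal axis) of each annotated transcript (points), by list (rows, with the number of transcripts), and the median of each list (bars). Most points lie near 0, the median is highest for histones and chromatin at 0.42, and it is lowest for yolk proteins at -0.40.

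Histones and chromatin proteins, which package DNA, were the list furthest above 0. All 6 members had a positive log2 fold change of O over A, from 0.29 to 0.67 with a median of 0.42, and 3 of the 6 had an unadjusted p under 0.05, but none was called. Among them, *his-57* (TRINITY_DN88572_c4_g1_i2_9dedup) was at 92.9, 141 and 248 CPM in the lowest, median and highest O library. In A it was at 92, 90.1, 102 and 89.8 CPM, so that only the lowest O library fell within the range of A (log2 fold change 0.67, SE 0.207, edgeR FDR 0.332).

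The other was *his-4* (TRINITY_DN81999_c1_g1_i2_9dedup), the transcript of highest mean level in the list. It was at 133, 168 and 236 CPM in O and at 127, 127, 128 and 115 CPM in A, without overlap. The log2 fold change was 0.49 (SE 0.155, edgeR FDR 0.348), and it was 0.48 in the set of 5 and 0.47 in the other O and A libraries, on log2 CPM. For *his-41* (TRINITY_DN50533_c2_g1_i3_4dedup) the fold change was 0.41, with 42.9 to 94.8 CPM in O and 44.4 to 53.5 CPM in A. The median of the list was 0.27 in the set of 5 and 0.60 in the others. In H minus AS the median of the list was 0.08 and 3 of the 6 members were positive, namely *his-57* (TRINITY_DN88572_c4_g1_i2_9dedup) at 0.17, *his-4* at 0.21 and *his-41* at 0.23. None of the 6 was called there, and the lowest values were those of *htz-1* (TRINITY_DN82296_c0_g1_i1_9dedup) at -0.81 and *hmg-1.1*-like (TRINITY_DN86820_c0_g1_i2_9dedup) at -0.74.

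Globins, which bind oxygen, also had only positive differences, with a median of 0.37 over 4 members. The most abundant, a *glb-1*-like transcript (TRINITY_DN84338_c0_g1_i3_9dedup), was at 1048, 1488 and 1959 CPM in the lowest, median and highest O library and at 1098, 995, 1353 and 1361 CPM in A. The ranges overlapped, and the log2 fold change was 0.29 (SE 0.171, edgeR FDR 0.693). A transcript with a globin domain (TRINITY_DN10975_c0_g1_i1_9dedup) had the largest value of the list, 0.57 (SE 0.778), at 0.265 to 4.48 CPM in O and 0.224 to 2.44 CPM in A. The median of the list was 0.01 in the set of 5 and 0.71 in the other O and A libraries. In H minus AS all 4 were negative, with a median of -1.05, and 1 of the 4 was called there, beside 2.72% of all tested transcripts (1.62% called higher in AS).

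**Figure D5:**
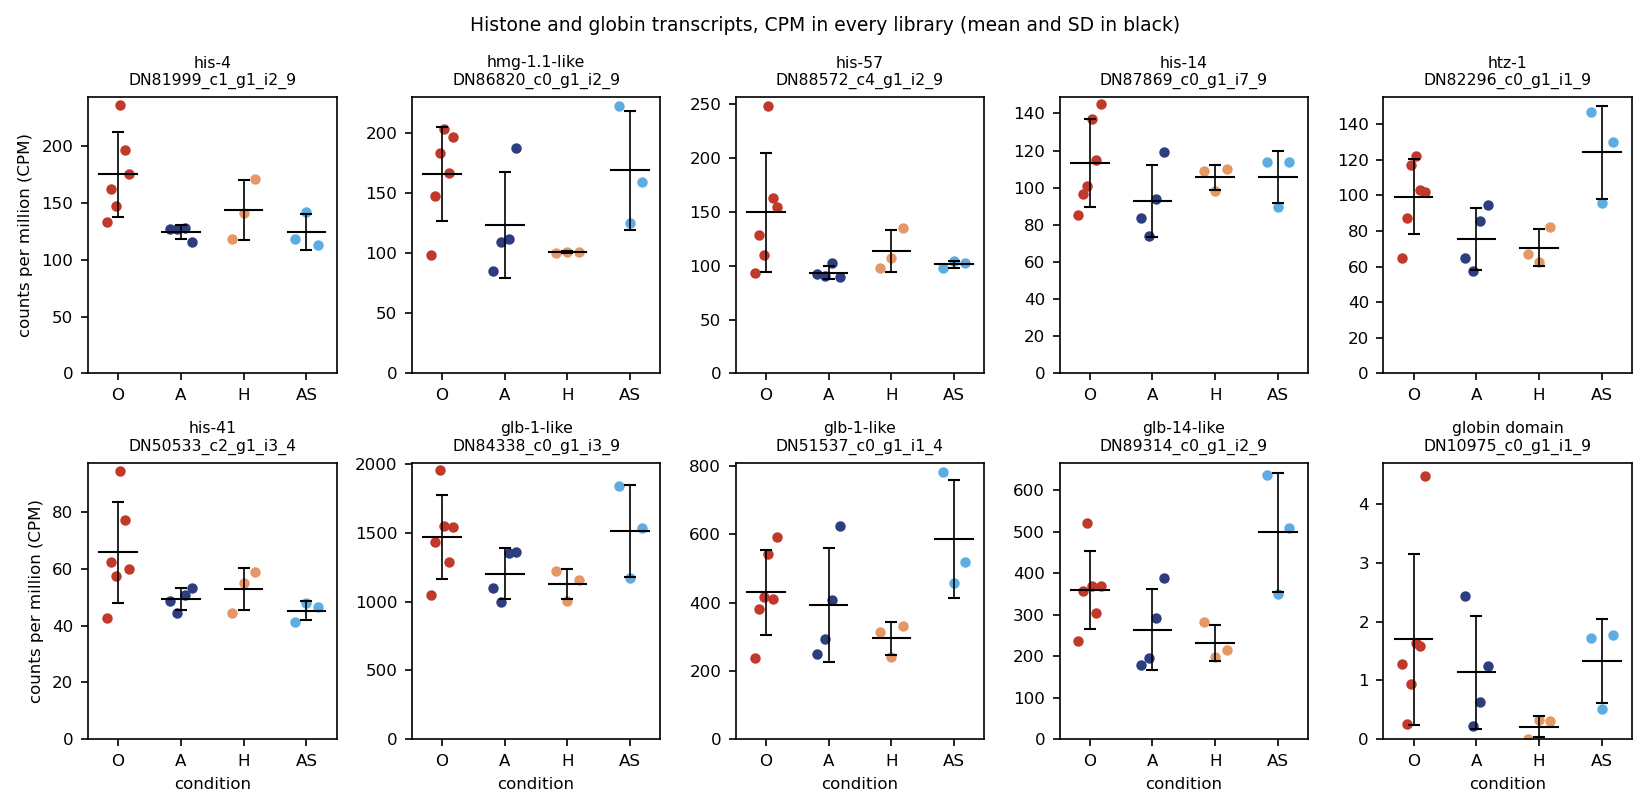
CPM (vertical axes, each from 0) of the 6 histone and chromatin transcripts and the 4 globin transcripts in every library (points), by condition, with the mean and SD in black. For *his-4* the O points, from 133 to 236 CPM, lie above the A points, from 115 to 128 CPM, whereas in the other panels O and A overlap.

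Among enzymes that handle peroxide and sulfide, 4 of 7 members were positive, with a median of 0.07 and no call. The median was -0.10 in the set of 5 and 0.18 in the others. The largest difference was that of a peroxidasin-like transcript named *C46A5.4*-like (TRINITY_DN95018_c3_g1_i10_9dedup). It was at 1386, 2279 and 2852 CPM in O (lowest, median, highest) and at 1166, 1262, 2217 and 737 CPM in A. Of the A libraries only replicate 3 fell within the O range, and the log2 fold change was 0.71 (SE 0.256, edgeR FDR 0.414), with 0.85 in the set of 5 and 0.75 in the others. In H minus AS it was 0.84.

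The catalases, which split hydrogen peroxide, overlapped between the conditions. *ctl-2* (TRINITY_DN94512_c1_g1_i8_9dedup), the most abundant of the list, was at 2736 to 5558 CPM in O and 3062 to 3579 CPM in A (log2 fold change 0.07, SE 0.176). *ctl-1* (TRINITY_DN54162_c0_g4_i1_4dedup) had the most negative value, -0.27 (SE 0.231), at 383 to 966 CPM in O and 588 to 836 CPM in A.

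Of 10 transcripts of the respiratory chain and of ATP handling, 5 were positive and 5 negative, with a median of -0.02 and a range of -0.14 to 0.19. The median was -0.22 in the set of 5 and 0.19 in the other O and A libraries. The *nduo-4*-like transcript (TRINITY_DN93105_c1_g2_i1_9dedup), for a subunit of complex I, varied widely within each condition, at 6162, 12169 and 19459 CPM in O and 7691, 6578, 11058 and 17713 CPM in A. Its log2 fold change was 0.19 (SE 0.317). That of *ctc-1* (TRINITY_DN95486_c1_g1_i1_9dedup), subunit I of cytochrome c oxidase, which passes electrons to oxygen, was -0.14 (SE 0.218).

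In glycolysis the median over 6 members was -0.03, with -0.15 in the set of 5 and 0.24 in the others. Enolase, *enol-1* (TRINITY_DN52430_c0_g1_i2_4dedup), had the largest value. It was at 1186, 1333 and 1583 CPM in O and at 1098, 1092, 985 and 1277 CPM in A, where only replicate 5 reached into the O range (log2 fold change 0.29, SE 0.123, edgeR FDR 0.517). Aldolase, *aldo-1* (TRINITY_DN52711_c0_g1_i4_4dedup), was the most abundant, with a log2 fold change of -0.01 (SE 0.13). The most negative, at -0.10 (SE 0.724), was a copy of *gpd-3* (TRINITY_DN80994_c0_g1_i1_9dedup), a glyceraldehyde-3-phosphate dehydrogenase, at 4.16 to 46.4 CPM in O and 4.15 to 53.7 CPM in A. These ranges followed the sets. In the set of 5 it was at 12.8 to 46.4 CPM in O and at 18 and 53.7 CPM in A. In the others it was at 4.16 to 5.89 CPM in O and at 4.15 and 4.47 CPM in A.

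Of 6 transcripts of the citrate cycle and propionate metabolism, 5 were positive, with a median of 0.03. Citrate synthase, *cts-1* (TRINITY_DN53947_c2_g2_i1_4dedup), which opens the cycle, was at 685, 826 and 878 CPM in O and at 716, 672, 679 and 619 CPM in A. Only A replicate 1 was above the lowest O library, and the log2 fold change was 0.26 (SE 0.111, edgeR FDR 0.527). Methylmalonyl-CoA mutase, *mmcm-1* (TRINITY_DN52923_c0_g1_i2_4dedup), had the most negative value, -0.07 (SE 0.17).

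The 6 enzymes that link phosphoenolpyruvate, malate and fumarate had a narrow range, from -0.07 to 0.05 with a median of 0.00. Phosphoenolpyruvate carboxykinase, *pck-2-1* (TRINITY_DN54139_c0_g2_i2_4dedup), was at 1318, 1461 and 1859 CPM in O and at 1917, 1602, 1507 and 1318 CPM in A, with a log2 fold change of -0.07 (SE 0.146). Malate dehydrogenase, *mdh-1* (TRINITY_DN51770_c0_g1_i2_4dedup), was at 862 to 1078 CPM in O and 822 to 1060 CPM in A (0.05, SE 0.137). Differences larger than these SEs could also have gone uncalled with this number of batches. The smallest log2 fold change called in the whole comparison was 0.60, with an SE of 0.112.

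Chaperones, which refold proteins, had a median of -0.08 over 9 members, -0.28 in the set of 5 and 0.10 in the others. The most abundant, *hsp-90-2* (TRINITY_DN95139_c3_g1_i4_9dedup), was at 3997, 5748 and 6844 CPM in O and at 6576, 4608, 6255 and 6242 CPM in A (log2 fold change -0.08, SE 0.178). The mitochondrial chaperone *hsp-60* (TRINITY_DN48693_c0_g1_i1_4dedup) was the lowest, at -0.25 (SE 0.154). A low transcript of the HSP70 family (TRINITY_DN10034_c0_g1_i1_9dedup) reached 0.99 (SE 0.583), with 17.2 CPM in O replicate 2 and a median of 2.88 CPM in O.

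Proteins of the cytoplasmic ribosome were positive in 14 of 18 members, with a median of 0.09. This value joined opposite ones, since the median was -0.21 in the set of 5 and 0.42 in the other O and A libraries. The most abundant, *rps-24* (TRINITY_DN84827_c0_g2_i1_9dedup), was at 621, 911 and 1389 CPM in O and 599, 644, 791 and 1314 CPM in A (log2 fold change 0.24, SE 0.247). The extremes of the list were *rpl-24.1*-like (TRINITY_DN61953_c0_g1_i4_9dedup) at 0.46 (SE 0.22) and *rps-3* (TRINITY_DN52180_c1_g2_i2_4dedup) at -0.18 (SE 0.154).

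The 3 transcripts of translation factors were negative, with a median of -0.12. The poly(A)-binding protein *pab-1* (TRINITY_DN54797_c2_g1_i1_4dedup) was at 2668 to 4934 CPM in O and 3316 to 4234 CPM in A (-0.12, SE 0.15). The elongation factor *eef-1A.2* (TRINITY_DN53482_c0_g1_i2_4dedup) was at 1927 to 2356 CPM in O and 2015 to 2715 CPM in A (-0.19, SE 0.133).

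Of 4 transcripts for ubiquitin and its receptor, which mark and collect proteins for degradation, 3 were negative, with a median of -0.13. Ubiquitin *ubq-1-1* (TRINITY_DN50956_c2_g1_i9_4dedup), the most abundant, was at 1953 to 2464 CPM in O and 2026 to 2771 CPM in A (-0.13, SE 0.126). *ubq-1-3* (TRINITY_DN92253_c2_g1_i10_9dedup) was at -0.27 (SE 0.159), and the autophagy receptor *sqst-1*-like (TRINITY_DN54584_c1_g1_i3_4dedup) at 0.14 (SE 0.216).

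Body wall muscle markers were present in every library of these whole worms. The summed level of 18 thick filament transcripts was 16059 to 21079 CPM in O and 14045 to 23356 CPM in A, and that of 15 thin filament and actin transcripts 14082 to 17860 and 11983 to 21022 CPM. The highest A value of both sums exceeded all O values and the lowest fell below them, so these sums overlapped between the conditions. Thick filament transcripts had a median log2 fold change of 0.06 (14 of 18 positive), which joined medians of -0.16 in the set of 5 and 0.30 in the other O and A libraries, with 4 of 18 positive in both. Their values ran from -0.10 for *unc-15-2* (TRINITY_DN94963_c0_g1_i3_9dedup, paramyosin) to 0.30 for a copy of *unc-54* (TRINITY_DN84318_c0_g1_i2_9dedup, myosin heavy chain).

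The most abundant thick filament transcript, *unc-15-1* (TRINITY_DN54096_c0_g1_i3_4dedup), was at -0.01 (SE 0.142). Thin filament transcripts had a median of -0.01 (6 of 15 positive), -0.18 in the set of 5 and 0.26 in the others, with *tni-3* (TRINITY_DN53108_c0_g1_i5_4dedup, troponin I) the most abundant at 0.01 (SE 0.181). The calponin-like *clik-1* (TRINITY_DN92382_c0_g1_i1_9dedup) was at 0.33 (SE 0.211), and a copy of *lev-11* (TRINITY_DN64032_c0_g1_i1_9dedup, tropomyosin) at -0.20 (SE 0.397).

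Yolk proteins, which mark egg-producing animals, varied more between batches than between conditions. *vit-6* (TRINITY_DN54667_c1_g1_i1_4dedup) was at 2640, 5030 and 11948 CPM in the lowest, median and highest O library and at 9744, 12146, 4983 and 6834 CPM in A. The ranges overlapped widely, and the log2 fold change was -0.43 (SE 0.354, edgeR FDR 0.824). The summed yolk level was 3090 to 14006 CPM in O and 5813 to 14154 CPM in A, and its part in the called differences was not tested.

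Intermediate filaments and tubulin, which shape cells, were negative in 6 of 8 members (median -0.13). *ifa-1-1* (TRINITY_DN53608_c0_g1_i2_4dedup), the most abundant, was at 0.03 (SE 0.143), and a copy of *ifb-1* (TRINITY_DN83970_c0_g1_i1_9dedup) at -0.79 (SE 0.529), with 6.58 to 41.3 CPM in O and 11.6 to 83.2 CPM in A. In the set of 5 this copy was at 19.6 to 41.3 CPM in O and at 35.6 and 83.2 CPM in A. In the others it was at 6.58 to 14.1 CPM in O and at 14.1 and 11.6 CPM in A. Extracellular matrix and cuticle transcripts had a median of -0.07 over 6 members. The most abundant, *ig-h3-like-2* (TRINITY_DN54386_c1_g1_i1_4dedup), was at 0.00 (SE 0.237), *ost-1* (TRINITY_DN85793_c0_g1_i7_9dedup, the matrix protein SPARC) at 0.22 (SE 0.331), and the collagen *col-113*-like (TRINITY_DN46483_c0_g1_i6_4dedup) at -0.84 (SE 0.907), at under 2 CPM in every O and A library.

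Calcium-binding and neuronal proteins had a median of 0.12 over 6 members, -0.07 in the set of 5 and 0.31 in the others. The calexcitin-like *cex-2*-like (TRINITY_DN50837_c0_g1_i1_4dedup) was at 372, 386 and 472 CPM in O and at 226, 252, 307 and 617 CPM in A, so that A replicate 5 lay above and the other A libraries below every O library (0.19, SE 0.231). *cex-1*-like (TRINITY_DN91465_c0_g1_i1_9dedup) was at 0.20 (SE 0.223), and *cal-5* (TRINITY_DN83308_c0_g1_i2_9dedup), a calmodulin-like protein, at -0.11 (SE 0.231).

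The 3 immune and secreted proteins had a median of -0.03, -0.33 in the set of 5 and 0.12 in the others. Among them, the transcript for lysozyme-like protein 5 (TRINITY_DN58251_c0_g1_i1_9dedup), of a family that digests bacterial walls, had the most negative value. It was at 212, 303 and 628 CPM in O and at 432, 382, 643 and 823 CPM in A. O replicates 2 and 6 lay within the A range, and the log2 fold change was -0.69 (SE 0.29, edgeR FDR 0.518). The sugar-binding galectin *lec-3* (TRINITY_DN94156_c1_g1_i2_9dedup) was at 0.11 (SE 0.136).

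Over all 184 tested transcripts with a name, 13 (7.07%) had an unadjusted p under 0.05, beside 8.56% of all tested transcripts, and the smallest FDR was 0.133. That smallest value belonged to a transcript matched to *IHH* (TRINITY_DN101262_c0_g1_i1_9dedup), a hedgehog signal protein of vertebrates. It had 0, 35, 76 and 74 reads in A replicates 1, 2, 3 and 5 and 0 reads in every O library but replicate 2, with 4 reads. A replicate 1 thus resembled O, and the fitted log2 fold change of -5.68 (SE 1.28, edgeR FDR 0.133) depends on the prior count. *IHH* also had 0 reads in every AS library, and in H it had 2 reads in replicate 3 and 0 in the others. In the likelihood ratio test, one of the alternatives, its FDR was 0.0227.

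A transcript matched to *MCMBP* (TRINITY_DN102339_c0_g1_i1_9dedup), which binds the helicase of DNA replication, was also near 0 in O. It was at 0.111, 1.73, 3.37 and 0.719 CPM in A and at 0 to 0.331 CPM in O (-4.23, SE 1.16, edgeR FDR 0.276), with overlap. In H it was at 0.0759, 0.129 and 2.35 CPM, and in AS at 0.0747 to 0.217 CPM. By contrast, *ndk-1* (TRINITY_DN52354_c1_g1_i3_4dedup), a nucleoside diphosphate kinase, was at 83.2, 114 and 135 CPM in O and at 84.4, 82.1, 81.1 and 92.5 CPM in A. Only the lowest O library fell into the A range (0.41, SE 0.12, edgeR FDR 0.307).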

How the data were processed

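RNA from batches of whole worms was sequenced after rRNA depletion. The authors assembled a host transcriptome from reads without symbiont and rRNA sequences, mapped trimmed reads to it with Bowtie2 and deposited RSEM 1.3.1 expected counts per transcript, strand-aware and not normalized. Of the values in an O or A library, 35.6% to 47.9% were fractional. They were rounded here.

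A transcript was tested with at least 10 reads in 3 or more libraries of O or of A (18963), unless fewer than 10 reads remained in total outside the set of 5 libraries (1031). Library sizes were totals over all transcripts. After TMM scaling, edgeR 4.0.16 fitted a mean per condition over 16 libraries (R 4.3.3), and SEs were derived from F statistics. Alternatives used DESeq2 1.42.0 and limma 3.58.1. The fit was also run on simulated data with a common spread for all transcripts and no sets of libraries. That run therefore does not cover differences between the sets or outlying libraries. Figures and tables used Python 3.11.15, pandas 2.3.3, numpy 2.4.6 and matplotlib 3.10.9.

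The comparison, its members, the lists and the rules were chosen with earlier results of these data known. Names came from the study's Data S2 (172 loci) and the first 1129 rows of its Data S1. By rule, the text names called transcripts with a gene name, the most abundant, most positive and most negative member of each list, the 2 largest differences per direction among called transcripts that do not overlap and hold 10 or more reads in each library of the higher condition, and the 5 named transcripts of smallest p. *his-41*, *htz-1*, *hmg-1.1*-like, TRINITY_DN36529_c0_g1_i3_4dedup and TRINITY_DN51756_c0_g1_i1_4dedup were added after their values were seen.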

Additional observations from a re-analysis of the deposited data

Results flagged for a closer look

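In 15 of 104 examined groups of O or A libraries, the highest or lowest library stood apart from the others by Dixon's test, which chance alone does in about 1 in 20 groups. Transcripts measured in the same libraries are not independent, and nothing was tested about the cause.

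O replicate 6 was the highest of O in *cex-2*-like (TRINITY_DN50837_c0_g1_i1_4dedup, 472 CPM), *ost-1* (TRINITY_DN85793_c0_g1_i7_9dedup, 3184 CPM), *sqst-1*-like (TRINITY_DN54584_c1_g1_i3_4dedup, 3014 CPM) and the globin domain transcript (TRINITY_DN10975_c0_g1_i1_9dedup, 4.48 CPM). O replicate 1 was the highest of O in *ctl-2* (TRINITY_DN94512_c1_g1_i8_9dedup, 5558 CPM), *pck-2-1* (TRINITY_DN54139_c0_g2_i2_4dedup, 1859 CPM) and *pab-1* (TRINITY_DN54797_c2_g1_i1_4dedup, 4934 CPM). O replicate 2 was the highest of O in the HSP70 family transcript (TRINITY_DN10034_c0_g1_i1_9dedup, 17.2 CPM), *IHH* (TRINITY_DN101262_c0_g1_i1_9dedup, 0.265 CPM) and *MCMBP* (TRINITY_DN102339_c0_g1_i1_9dedup, 0.331 CPM).

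Among A libraries, replicate 5 was the lowest in *his-4* (TRINITY_DN81999_c1_g1_i2_9dedup, 115 CPM) and in TRINITY_DN95874_c9_g2_i5_9dedup (7.45 CPM) and the highest in *lev-11* (TRINITY_DN64032_c0_g1_i1_9dedup, 25.2 CPM). Replicate 2 was the lowest in *hsp-90-2* (TRINITY_DN95139_c3_g1_i4_9dedup, 4608 CPM), and replicate 3 in *ctl-2* (3062 CPM).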

How the results depend on the processing

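All 25 called transcripts kept their direction in every alternative, and each was called in 7 to 27 of 29 (median 13). The number called stayed within 1.5 times of 25 with other scalings, with the transcripts of the set of 5 kept in, with limma voom, with no limit on fold change and with a term for the set. It was 10 without a filter on low counts (1 higher in O, 9 in A), 82 with DESeq2 (23 and 59), 88 with the likelihood ratio test (19 and 69) and 3 with a test against a 1.5-fold change (0 and 3). With at least 30 reads required, 32 were higher in A. It was 2 on O and A alone, with or without a term for the set (0 and 2), 1 within the set of 5 (0 and 1), and 0 within the 11 libraries outside it and within their 5 O and A libraries (0 and 0), the last chosen after the data were seen. Leaving out 1 replicate gave 7 to 35 calls, 0 to 9 higher in O and 7 to 26 in A. The cause of these differences was not tested, although the fits within sets hold fewer samples. None of the listed transcripts was called in any alternative. The share of transcripts with the same sign in both sets ranged from 46.4% to 57.3% and its Spearman correlation from -0.03 to 0.233 when 1 replicate was left out.

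With the replicate block, 14 were called over 16 libraries (4 higher in O, 10 in A) and 1 over replicates 1, 2, 3 and 5 (0 and 1). Same-numbered deviations correlated at 0.464, 0.017, 0.324 and 0.312, and O replicate 2 correlated better with A replicate 3 (0.31) than with its own number, so the numbers were not read as pairs.

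The following log2 fold changes, none of them called, changed sign. Within the set of 5 they were -0.26 for *cex-2*-like, -0.20 for *cex-1*-like, -0.22 for *rps-24*, -0.19 for *ig-h3-like-2*, -0.39 for *ost-1*, 0.53 for *col-113*-like, -0.03 for the globin domain transcript, -0.05 for *lec-3*, -0.30 for *tni-3*, -0.03 for *clik-1*, -0.10 for *ctl-2*, 0.03 for *pck-2-1*, -0.40 for *nduo-4*-like and -0.22 for *sqst-1*-like. Within the 11 other libraries they were 0.34 for *cal-5*, 0.11 for *hsp-90-2*, -0.04 for the HSP70 family transcript, 0.21 for *aldo-1*, 0.19 for *gpd-3*, 0.16 for *unc-15-1*, 0.13 for *unc-15-2* and 0.41 for *ctc-1*, and within their O and A libraries the same except -0.03 for the HSP70 family transcript and 0.17 for *unc-15-1*. With the replicate block over 16 libraries and over replicates 1, 2, 3 and 5, they were 0.01 and 0.03 for *mmcm-1*, -0.07 and -0.09 for *ig-h3-like-2*, 0.75 and 0.73 for *gpd-3*, 0.02 and 0.04 for *unc-15-1*, -0.07 and -0.05 for *tni-3*, 0.27 and 0.22 for *lev-11*, -0.13 in both for *nduo-4*-like, and -0.10 in the former for the globin domain transcript. With limma voom *ig-h3-like-2* was at -0.06 and *gpd-3* at 0.12. With a term for the set they were at -0.04 and 0.02 over 16 libraries and at -0.02 and 0.03 over O and A, where *aldo-1* and *unc-15-1* were at 0.00. Scaled to total counts, *aldo-1* was at 0.02 and *unc-15-1* at 0.01, and on O and A alone *aldo-1* was at 0.00.

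Leaving out 1 replicate turned the sign of *cal-5* (-0.25 to 0.20), *mmcm-1* (-0.18 to 0.01), *ig-h3-like-2* (-0.23 to 0.18), the globin domain transcript (0.00 to 1.28), *aldo-1* (-0.06 to 0.09), *gpd-3* (-0.59 to 1.09), *ifa-1-1* (-0.03 to 0.09), *ifb-1* (-1.1 to 0.04), *unc-15-1* (-0.06 to 0.10), *unc-15-2* (-0.15 to 0.01), *tni-3* (-0.09 to 0.24), *lev-11* (-0.44 to 0.51), *ctl-2* (-0.10 to 0.13), *pck-2-1* (-0.14 to 0.05), *ctc-1* (-0.29 to 0.13) and *sqst-1*-like (-0.01 to 0.27). The likelihood ratio test called *IHH* (FDR 0.0227) and *MCMBP* (FDR 0.0377). Depth limits the statements on transcripts at a few reads per library, such as *IHH*.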
